A study of Caenorhabditis elegans with 2 samples.

Results

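The 10 genes described here encode the DSL family of Notch ligands of Caenorhabditis elegans, and they were taken by name: lag-2, apx-1, arg-1 and dsl-1 to dsl-7. All 10 matched a protein-coding gene of the annotation, out of 19973 on the nuclear chromosomes. The study profiled binding of LAG-1 by chromatin immunoprecipitation and sequencing (ChIP-seq) in 1 group of 2 biological replicates, with no second condition. Both replicates were whole young adult worms of strain RW12314, collected at 62 hours after synchronisation as starved L1 larvae. They carried a CRISPR insertion at lag-1 that adds TY1, EGFP and 3xFLAG to the protein, and an antibody to GFP pulled down the chromatin. The tag sits on the gene's own locus and not on an added transgene. In whole worms, binding in few cells and weak binding in many cannot be told apart.

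DSL proteins are named for Delta, Serrate and LAG-2. A cell that displays or secretes one activates a Notch receptor, LIN-12 or GLP-1, on a neighbouring cell. The receptor is then cut, and its intracellular part enters the nucleus of the receiving cell and joins LAG-1 on DNA. LAG-2 is the ligand that the distal tip cell presents to the germline to maintain stem cells, and the anchor cell uses it in gonad development. APX-1 is known for its maternal role in the early embryo. APX-1, LAG-2 and the secreted protein DSL-1 also act in lateral signalling between vulval precursor cells. The data address whether LAG-1, which acts in the receiving cell, was also found at the genes of the ligands.

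No DSL gene carried a LAG-1 peak. A candidate is an entry of the authors' ranked list that compares the replicates, and it was assigned to a gene if its summit lay between 2000 bp upstream of the annotated gene start and the 3' end. Each candidate has a deposited signal, the peak caller's own strength over the control on the pooled reads of both replicates. Its signals in the lists compared are separate values and need not match it. It also has an irreproducible discovery rate (IDR), which estimates how many pairs of entries at that rank or above would not recur between replicates. At an IDR of 0.01 or below, the authors' threshold, 0 of the 10 genes had a candidate, where 1.56% of all 19973 genes had one. None of the 4 thresholded lists, the conservative one included, had an entry in any of the 10 windows, and 1.49% of all genes had an entry of the conservative list. With 10 genes and such a background, a count of 0 does not set the family apart. The summit of the conservative list nearest to a gene start lay from 36801 bp away at dsl-5 to 185891 bp away at dsl-6.

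Below the threshold, the genes held 63 candidates of the 125458 in the list. Their signals ran from 3.22 to 40.8 with a median of 17.8, against a median of 19.4 over the whole list and of 66.3 over the 291 entries of the conservative list. The lowest signal in the conservative list was 10.3, so the ranges overlap. At an IDR of 0.1 or below, 2 of the 10 genes had a candidate, dsl-3 and dsl-7, beside 18.9% of all genes. Of the 63 candidates, 26 stood at 0.683, the highest IDR in the list, which 40.4% of all entries shared. The density was 1.29 candidates per kb of searched window in the DSL genes and 1.28 per kb in all other protein-coding genes.

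The bases at the summits of the best-ranked candidates are shown next, to let the presence or absence of a LAG-1 site be read directly. These sequences come from the WBcel235 assembly (the ce11 build of the lists) and run 5' to 3' on the strand of the DSL gene named. They reach up to 100 bp to each side of the summit. Each stops where an annotated UTR begins, leaving out the UTR and the bases beyond it. Capitals would mark a LAG-1 site, ATGGGAA or GTGGGAA on either strand. Among the strongest candidates of the 10 genes, the 4 with the smallest IDR, at lag-2, dsl-3, dsl-4 and dsl-7, hold none.
lag-2, chrV:3188350-3188534, plus strand: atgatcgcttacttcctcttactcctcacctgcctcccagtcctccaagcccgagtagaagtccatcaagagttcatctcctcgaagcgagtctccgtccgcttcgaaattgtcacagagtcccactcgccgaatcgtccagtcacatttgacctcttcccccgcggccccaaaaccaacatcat
dsl-3, chrIV:1608507-1608707, plus strand: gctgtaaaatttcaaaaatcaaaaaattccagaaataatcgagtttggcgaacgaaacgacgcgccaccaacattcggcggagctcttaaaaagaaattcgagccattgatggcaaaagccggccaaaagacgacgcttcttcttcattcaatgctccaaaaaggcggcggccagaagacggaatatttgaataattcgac
dsl-4, chrX:14090201-14090401, plus strand: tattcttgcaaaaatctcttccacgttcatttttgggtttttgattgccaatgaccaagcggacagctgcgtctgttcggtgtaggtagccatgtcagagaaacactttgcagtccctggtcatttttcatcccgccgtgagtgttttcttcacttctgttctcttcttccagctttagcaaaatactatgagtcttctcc
dsl-7, chrV:12992970-12993149, plus strand: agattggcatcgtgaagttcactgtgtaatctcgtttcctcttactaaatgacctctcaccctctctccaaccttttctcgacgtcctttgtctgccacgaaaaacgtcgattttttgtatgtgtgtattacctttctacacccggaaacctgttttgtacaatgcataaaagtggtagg
The lag-2 stretch opens at the start codon and is coding, and the dsl-7 stretch ends 1 bp before the gene start. The dsl-3 stretch is inside the neighbouring gene Y41D4B.11, and the dsl-4 stretch ends 12 bp downstream of the gene start.

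The single strongest candidate with a site was that of dsl-5, and its site is not in dsl-5. It lies in a coding exon of lys-4, a lysozyme gene, 897 bp upstream of the dsl-5 start and 25 bp from the summit. It reads TTCCCAT on the strand printed, which is ATGGGAA on the other.
dsl-5, chrIV:11621781-11621981, minus strand: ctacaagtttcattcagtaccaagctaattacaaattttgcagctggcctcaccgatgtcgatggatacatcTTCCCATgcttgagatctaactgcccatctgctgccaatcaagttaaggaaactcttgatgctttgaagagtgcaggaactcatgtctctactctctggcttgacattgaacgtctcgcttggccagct

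lag-2 (chrV:3188343-3190115, plus strand) had the highest signal of the family. Its strongest candidate had its summit 91 bp downstream of the gene start, in the first coding exon (chrV:3188316-3188551). The signal was 40.8 and the IDR 0.151. The signal was 17.97 in the first of the lists compared and 16.99 in the second, a ratio of 1.06. Another candidate lay in a coding exon, 1196 bp downstream of the gene start, with 36.8 (IDR 0.112, the smallest of the 6 at this gene). The compared lists gave 19.04 and 18.96 for it. An intergenic one 1607 bp upstream had 37.1, with 14.5 in the first list and 22.9 in the second. The remaining 3 ran from 7.67 to 18.9.

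Genes of similar span give the scale for these values, since a longer gene holds more candidates. Each gene was ranked by its strongest candidate among the 200 protein-coding genes nearest to it in span, the DSL genes left out. lag-2 stood at percentile 79, with a signal of 40.8 against a median of 32.2 in genes of 1755 to 1791 bp, 42 of which were higher. An IDR of 0.01 or below was reached by 2 of those 200.

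apx-1 (chrV:3210196-3223221, plus strand) stood lowest over the whole gene. It spans 13026 bp, the longest of the family, and had 19 candidates where the median in genes of similar span was 20. Its strongest had a signal of 27.9 (IDR 0.307), 650 bp upstream of the gene start, against a median of 39.3 in genes of similar span. That put it at percentile 2.5, with 195 of 200 higher. That rank depended on the length searched. With the search ended 500 bp past the gene start, apx-1 stood at percentile 52.5 and arg-1, at 17, was the lowest. The next was intronic, 7053 bp downstream of the gene start, at 25.5, in a window repeat-masked over 92.5% of its bases. The candidate in its first coding exon, 89 bp downstream of the gene start, had 21.9. In genes of its span class 10 of 200 (5%) passed an IDR of 0.01, the highest share among the 10 span classes, where the lowest was 0.5%.

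arg-1 (chrX:1786907-1788405, plus strand), named for its relation to apx-1, had 5 candidates and the lowest strongest signal of the family. Its strongest candidate lay in a coding exon, 1115 bp into the gene, and had 17.8 (IDR 0.418), and the next, 118 bp downstream of the gene start, had 17.4 (IDR 0.394). The compared lists gave 9.92 and 8.44 for the stronger one. It stood at percentile 9, against a median signal of 29.97 in genes of similar span.

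**Figure D1:**
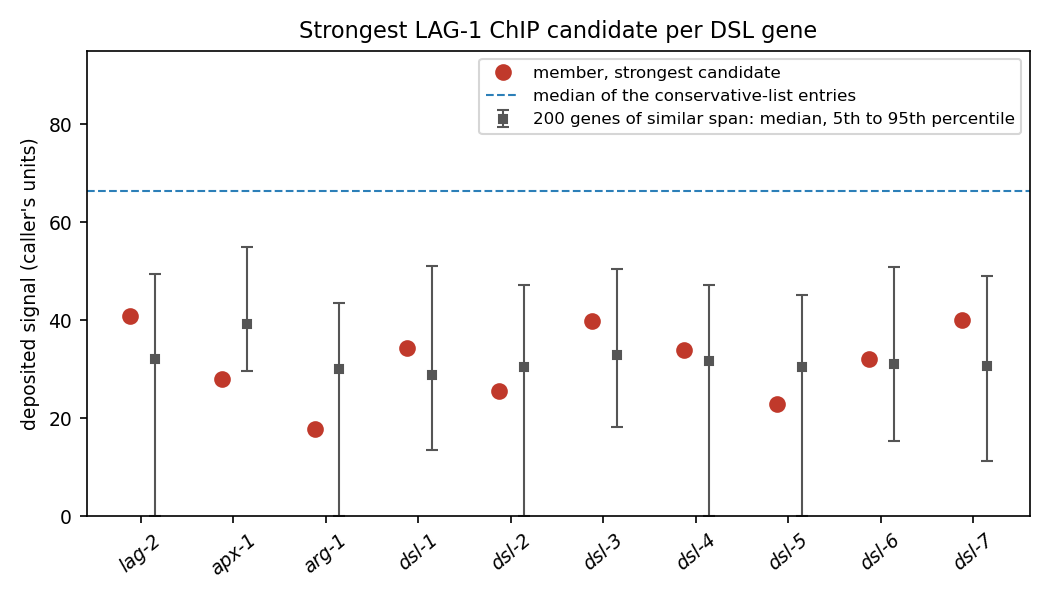
Deposited signal of the strongest candidate of each DSL gene (red points) beside the 200 genes nearest in span (grey squares, median; bars, 5th to 95th percentile, where 0 stands for a gene with no candidate); the dashed line is the median of the conservative list. The DSL genes lie between 17.8 and 40.8, under the line at 66.3, and apx-1 is the one below the bar of its similar genes. The line is a median, and entries of the conservative list reach down to 10.3.

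dsl-1 (chrIV:1207218-1208080) and dsl-2 (chrIV:1202651-1204970) lie near each other on the minus strand, with an annotated pseudogene between them and with separate search windows. At dsl-1 the strongest candidate was intergenic, 988 bp upstream of the gene start, and had 34.3 (IDR 0.209), with 13.99 and 17.5 in the compared lists. It stood at percentile 72.5 among genes of similar span, whose median was 28.9. The candidate nearest to the dsl-1 start, 38 bp upstream, had 18.3. At dsl-2 the strongest was at the start itself, 18 bp downstream in the first coding exon, with a signal of 25.6 (IDR 0.420). The compared lists gave 7.10 and 17.9 for it, a ratio of 2.52, the widest among the 10 strongest candidates. These paired records have separate summits. In replicate 1's own list the 7.10 record had its summit 161 bp upstream of the gene start. In replicate 2's own list the 17.9 record had its summit 12 bp downstream. dsl-2 stood at percentile 26, against a median of 30.5.

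dsl-3 (chrIV:1610273-1612924, plus strand) had the smallest IDR of the family, but at a candidate that lies in another gene. Its strongest candidate (signal 39.9, IDR 0.0734) was 1666 bp upstream of the dsl-3 start, in a coding exon of Y41D4B.11, and the compared lists gave 21.6 and 20.2. With it dsl-3 stood at percentile 77.5 among genes of similar span, whose median was 32.98. When the search reached only 500 bp upstream, it stood at percentile 18. The strongest candidate that lies in no gene, 791 bp upstream of dsl-3, had 27.5 (IDR 0.256). The gene had 9 candidates where the median in genes of similar span was 6.

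dsl-4 (chrX:14090389-14092054), dsl-6 (chrIV:11396765-11398317) and dsl-7 (chrV:12993150-12994824) each had their strongest candidate just upstream of the gene start. At dsl-7 it lay 80 bp upstream (chrV:12992952-12993187) and had a signal of 40.04 (IDR 0.0947), at percentile 87, where genes of similar span had a median of 30.6. That promoter region is shared in this annotation with F15B9.11, which starts on the other strand. At dsl-4, on X, it lay 88 bp upstream and had 33.99 (IDR 0.139), at percentile 59.5. At dsl-6 it lay 138 bp upstream and had 32.1 (IDR 0.296), at percentile 57, and it was the single candidate in the dsl-6 window, where the median in genes of similar span was 5. Counting 500 bp upstream to 100 bp downstream of a transcript start as a promoter, 5 of the 10 strongest candidates lay in the gene's own promoter, those of lag-2, dsl-2, dsl-4, dsl-6 and dsl-7. Of all protein-coding genes, 16% had their strongest candidate in their own promoter, and the difference from the ligand genes was not tested.

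dsl-5 (chrIV:11619363-11621009, minus strand) was low, with 3 candidates. Its strongest, the one in lys-4 shown above, had a signal of 22.8 (IDR 0.395) and stood at percentile 17, against a median of 30.3 in genes of similar span. The candidate inside dsl-5 itself, in an intron, had 12.6.

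**Figure D2:**
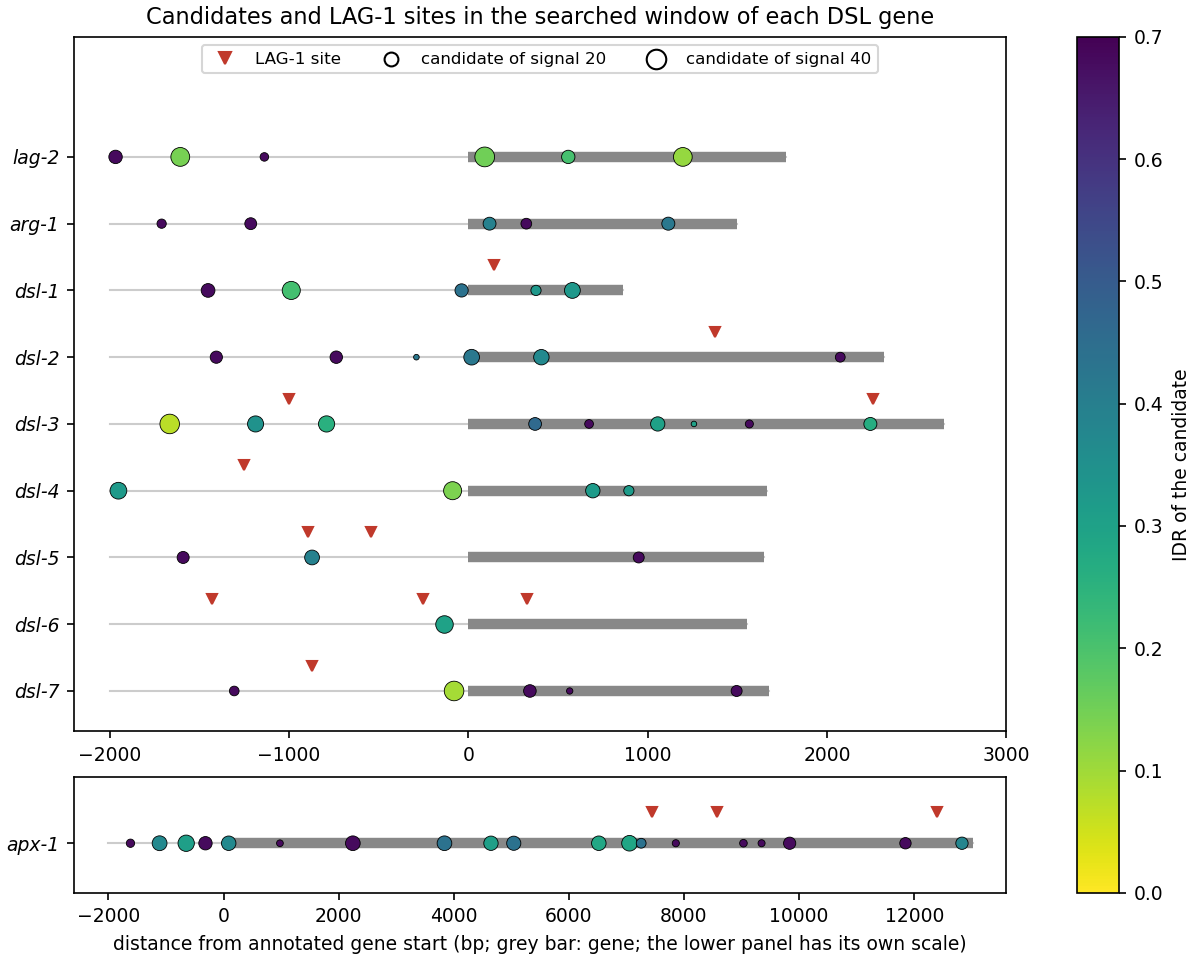
Position of the 63 candidates (circles, area by deposited signal, colour by IDR) and of the LAG-1 sites (triangles) along each gene, as distance in bp from the annotated gene start; the grey bar is the gene and the thin line the 2000 bp upstream, and apx-1 has a scale of its own. dsl-4, dsl-6 and dsl-7 have their largest circle just upstream of the start, and lag-2 and arg-1 have no triangle.

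Over the family, 6 genes lay above the median of their similar genes and 4 below. The members' median percentile was 58.3, and their median strongest signal was 33.1 against 32.2 over all other protein-coding genes. In increasing order of the strongest signal the genes were arg-1, dsl-5, dsl-2, apx-1, dsl-6, dsl-4, dsl-1, dsl-3, dsl-7 and lag-2. The deposited signal of an entry has no error of its own, so neighbours in this order, such as dsl-3 (39.9), dsl-7 (40.04) and lag-2 (40.8), are not distinguished. GC content within 100 bp of the strongest summit had a median of 43.5%, from 33.8% at dsl-6 to 52.2% at lag-2, against a median of 40.3% in other genes. Its part in the signals was not tested.

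The promoter candidates of dsl-4, dsl-6 and dsl-7 had higher signals in one of the lists compared than in the other. No header names which replicate each compared list is, but 56113 records of the first list recur exactly in the list deposited for replicate 1 and 0 in that of replicate 2, and 49552 records of the second recur in that of replicate 2 and 0 in that of replicate 1. At dsl-7 the signals were 25.9 in the first list and 16.5 in the second, at dsl-4 25.7 and 14.4, and at dsl-6 18.7 and 10.7. At each of these genes the first list was higher, by ratios of 1.57, 1.79 and 1.74. The paired records do not share a summit. In the own lists of replicates 1 and 2 their summits lay 88 and 182 bp upstream at dsl-7. They lay 38 and 122 bp upstream at dsl-4, and 134 and 151 bp upstream at dsl-6. Of the 10 strongest candidates, 8 have a record that recurs in replicate 1's list and 7 one that recurs in replicate 2's, against 71.9% and 69.7% of the strongest candidates of other genes. The promoter candidate of dsl-2 went the other way, with 7.10 in the first list and 17.9 in the second, from the records with separate summits given above. At lag-2 and dsl-3 the ratios were 1.06 and 1.07. Of the 10 strongest candidates 7 were higher in the first list, and 1, that of dsl-2, differed by more than 2-fold. Over the strongest candidates of all other genes the shares were 46.97% and 23.6%. Of the 63 candidates, 32 were higher in the first list, against 46.9% of all entries, and 18 differed by more than 2-fold, against 32.7%. Over the 63 candidates, which share libraries and of which 8 share their pair of list records with another candidate and 55 do not, the median ratio was 1.57, close to the 1.60 over the whole list. Their signals in the lists had Pearson's r of 0.323 and Spearman's rho of 0.312, where the whole list had 0.528 and 0.222, given as a description.

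**Figure D3:**
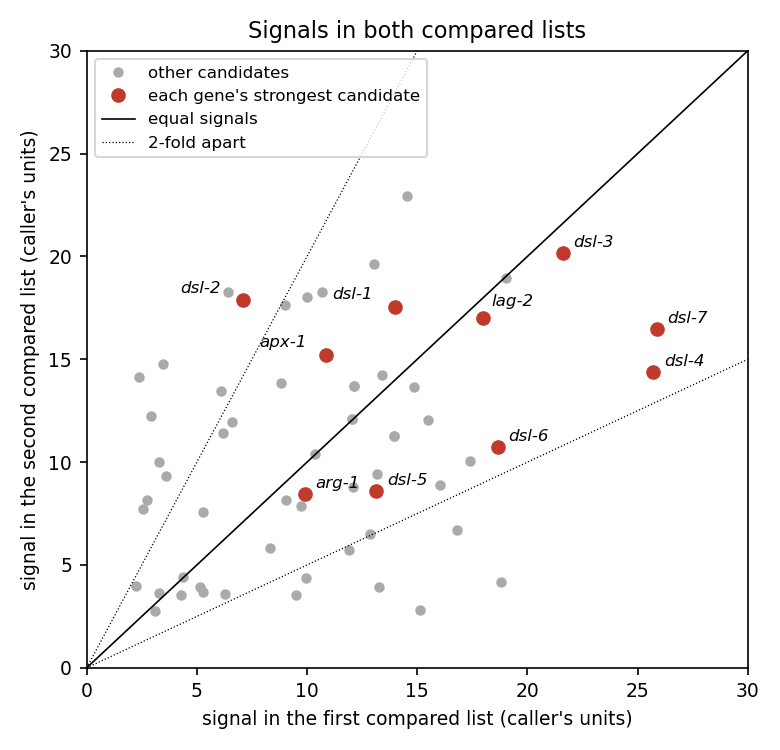
Deposited signal of each of the 63 candidates in the first (x axis) and second (y axis) compared list; red points are the strongest candidate of each gene, the solid line marks equal signals and the dotted lines a 2-fold difference. dsl-4, dsl-6 and dsl-7 lie below the solid line, lag-2 and dsl-3 near it, and dsl-2 above the upper dotted line.

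The ranks of dsl-4, dsl-6 and dsl-7 differed between the replicates' own lists. In replicate 1's own list dsl-7 stood at percentile 94 and dsl-4 at 92 among genes of similar span, and in replicate 2's own list they stood at 47.5 and 31.5. dsl-6 stood at 62.5 in replicate 1's list and at 25.5 in replicate 2's. lag-2 was above the median of its similar genes in both, at 57.5 and 79.5, and so was dsl-3, at 74 and 63.5. The lag-2 ranks rested on different entries, and neither on the one near the gene start. In replicate 1's list it was the coding-exon entry further into the gene (19.04), and in replicate 2's the intergenic upstream one (22.9). Both dsl-3 ranks rested on the entry in Y41D4B.11. apx-1 stood at 14 and 16, dsl-5 at 21 and 15, arg-1 at 27.5 and 46.5, and dsl-2 at 36.5 and 49, all below the median in both. dsl-1 was below the median in both, at 41 and 44.5, although it stood at 72.5 in the list that compares the replicates. The ranks of apx-1, arg-1, dsl-1 and dsl-2 also rested on different entries in each replicate's list. Both dsl-5 ranks rested on the entry in lys-4. The smallest IDR at any of the 10 genes was 0.699 in replicate 1's own list and 0.560 in replicate 2's. Such a list derives from a single replicate, so its IDR does not compare the replicates and is not the measure given above.

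**Figure D4:**
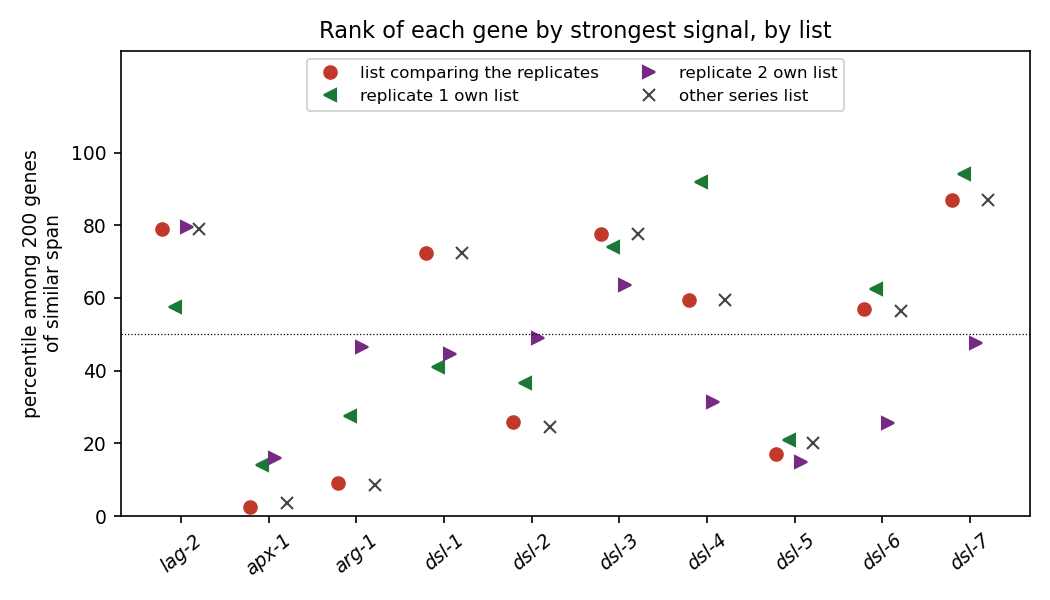
Percentile of each DSL gene among the 200 genes nearest in span, by its strongest signal, in the list comparing the replicates, in each replicate's own list and in the other series list; the dotted line is the median of similar genes. dsl-4, dsl-6 and dsl-7 lie above the line in replicate 1's list and below it in replicate 2's. lag-2 and dsl-3 are above it in both. The other series list gives lag-2 (40.8) and dsl-3 (39.9) the same signals as the list comparing the replicates. It is therefore no separate measurement of these genes.

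LAG-1 sites near these candidates were counted beside the shares over all genes and entries, and the differences were not tested. The strongest candidate held a site within 100 bp of its summit in 1 of the 10 genes, dsl-5, beside 6.52% of all genes. Among the 63 candidates 2 held one (3.17%), against 6.44% of all entries. The second of these, in a coding exon of dsl-3, had a signal of 17.8 and an IDR of 0.267, and its site lay 15 bp from the summit. No DSL candidate held more than 1, where 0.338% of all entries did.

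The searched windows held 14 sites in 48674 bp, 0.288 per kb, against 0.319 per kb in the windows of other protein-coding genes. Of these 11 read ATGGGAA and 3 GTGGGAA. The windows of lag-2 and arg-1 held none, as did those of 65 and 66 of their 200 genes of similar span. dsl-6 held 3, more than its similar genes' median of 1 and at percentile 92.3, and apx-1 held 3 where the median was 4. The GTGGGAA site 255 bp upstream of dsl-6 was the nearest to a strongest summit after that of dsl-5, at 117 bp. The GTGGGAA site in the first part of dsl-1 lay 142 bp downstream of its start in a coding exon and 180 bp from the nearest summit. The sites that came nearest to a candidate are printed with their flanks, on the strand of the site and with the site in capitals, for comparison of the bases around it.
dsl-3, chrIV:1612515-1612544, minus strand, 15 bp from a summit: ccgagttgaccATGGGAAttgcacactttt
dsl-5, chrIV:11621891-11621920, plus strand, 25 bp from a summit: tagatctcaagcATGGGAAgatgtatccat
dsl-6, chrIV:11398557-11398586, minus strand, 117 bp from a summit: tagggtcctacGTGGGAAgtgataattaaa
dsl-1, chrIV:1207923-1207952, plus strand, 180 bp from a summit: gaacgtttattgGTGGGAAaatacacttcc
A match is a description of the letters. The remaining sites lay from 189 to 1290 bp from the nearest summit.

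The edge of the search left out stronger candidates at some genes. Just inside 2000 bp lay a lag-2 candidate 1968 bp upstream (18.9) and a dsl-4 candidate 1952 bp upstream (29.4), and just outside lay an arg-1 candidate 2028 bp upstream (25.1), an apx-1 candidate 2051 bp upstream (31.8) and a dsl-6 candidate 2053 bp upstream (6.80). Between 2000 and 5000 bp upstream, a reach chosen after the data were seen, the strongest was at dsl-6, 3315 bp upstream (signal 41.3, IDR 0.169), and none of the strongest candidates there held a LAG-1 site. The strongest candidate in that stretch of dsl-2, 4098 bp upstream (34.3), is the one already counted 988 bp upstream of dsl-1.

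The genes that the ligands act with were searched in the same way. At an IDR of 0.01 or below, 0 of the 10 ligand genes had a candidate, where 1.56% of all protein-coding genes had one. At that share, a count of 0 does not set the ligand genes apart. Of 21 other Notch pathway genes, namely receptors, nuclear partners, proteases, co-ligands and regulators, 3 had one. The 3 genes were lag-1 itself (signal 75.9, percentile 99 among genes of similar span), dos-3, which encodes a co-ligand with a DOS motif (79.9, percentile 99.5), and epn-1, the gene of the adaptor protein epsin (69.6, percentile 99.5). The median percentile was 58.3 over the ligand genes, from 2.5 to 87, and 74 over the 21 other genes, from 5.5 to 99.5. The receptor genes lin-12 and glp-1 stood at 56 and 52. The difference between the lists was not tested, since both were chosen with results of these data known.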

How the data were processed

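LAG-1 ChIP-seq peak lists of 2 replicates were used. Per the labels, the lists are on ce11, and the notes deposited with each replicate say that they derive from its alignments and a control. The aligner and the peak caller are not stated in these sources. The authors' deposited signal is used as a score in the caller's own units, without a named scale. The deposited −log10 values give the global IDR of each entry. Peaks of the series lists rest on both replicates, and each replicate has lists of its own. Depth is unknown because no file used holds read totals. Signals carry no interval.

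Genes came from Ensembl release 115 and sequence from the RefSeq copy of WBcel235, the same assembly as ce11. 0 entries lay beyond a chromosome end. A percentile is the share of genes of similar span with a lower value, ties split evenly, and genes with no candidate counted as 0. All 10 members are named. Neighbouring genes are named by position, and pathway genes only with a candidate past the threshold, except lin-12 and glp-1, named after their values were seen. The members and lists were chosen with earlier results of these data known. No test was run, since there is 1 group. The gene search, ranking and site search were tested on simulated data. Python 3.11.15, NumPy 2.4.6, pandas 2.3.3 and matplotlib 3.10.9 were used.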

Additional observations from a re-analysis of the deposited data

How the results depend on the processing

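No paired analysis was possible because the series has 1 group. The count of DSL genes past the IDR threshold was 0 at 0.05, with 5000 bp upstream, in each of the other lists and without either replicate. It was 2 at an IDR of 0.1. At 0.005 and at the shorter reaches it was also 0, but that follows from the main count of 0 and is no check of it. Without either replicate, the IDR is that of the other's own list, which does not compare the replicates. The median percentile of the family among genes of similar span (58.3) was 50 with 1000 bp upstream, 49.5 with 500 bp upstream, 68.3 with the search ended 500 bp past the gene start, and 48 with 5000 bp upstream, a reach added once values were known. By the signal of the first compared list it was 48.5, by that of the second 38.5 and by IDR 50.8, and it was 45.5 to 49.3 without 1 replicate. The spread (SD) between the compared lists was 7.07 percentile points. Of 130 alternative percentiles of single genes, 89 stayed within that gene's own spread between the lists. That count is no measure of stability, since a gene whose lists differ widely stays within its spread easily. The spread was 43.8 points at dsl-4, which ran from 30.5 to 92.5, 35.0 at dsl-6 and 33.9 at dsl-7, against 5.3 at arg-1. lag-2 stayed above 50 in 13 of 13, from 57.5 to 86.5, and arg-1, dsl-2 and dsl-5 in 0 of 13. The strongest candidate held a LAG-1 site in 0 genes with 500 bp upstream or with GTGGGAA alone, and in 2 with sites up to 250 bp from the summit. The causes were not tested. The conservative list was also added after the data were seen.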
